A study of Homo sapiens with 6 samples.

Results

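The genes described here are 10 keratins measured in LM3 cells, KRT7, KRT8, KRT10, KRT15, KRT17, KRT18, KRT19, KRT23, KRT80 and KRT81. They were taken by gene symbol, and each matched a row of the deposited table, so that 10 of its 33007 genes were described. LM3 is an established human hepatocellular carcinoma (HCC) cell line. RNA-seq was performed on 3 vector control samples and 3 samples with stable knockdown of ZNF706, a gene for a C2H2-type zinc finger protein, to compare gene expression with and without it. For stable knockdown the study infected cells with lentivirus carrying a short hairpin RNA (shRNA) against ZNF706 in the pLKO.1 vector and selected them with puromycin. The labels give the genotype WT for all 6 samples and the treatment control or ZNF706 knockdown. They do not say which shRNA was used or whether the 3 samples of a group came from separate cultures, so the p-values measure only the spread between these samples. Total counts were 62684076, 64713764 and 63054445 in the vector controls against 68548419, 65861994 and 69057423 after knockdown, and the knockdown libraries were thus all the larger ones.

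Keratins are the intermediate filament proteins of epithelial cells. A type I (acidic) keratin and a type II (basic) keratin pair to form the building block of the filament, and the pairs differ between epithelia. KRT8 with KRT18 is the pair of simple epithelia and the usual pair of hepatocytes, whereas KRT7 and KRT19 mark bile duct cells and are used to recognise ductal features in liver tumours. Of the 10 genes, KRT7, KRT8, KRT18 and KRT19 are the classical simple epithelial keratins. KRT10 belongs to the differentiating layers of the epidermis, KRT15 to the basal layer, KRT17 to hair follicles and wounded skin, and KRT81 to hair, so the set is wider than simple epithelium. KRT80, a type II keratin, and KRT23, a type I keratin, occur in several epithelia.

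Because some keratins are close copies of each other, the coding sequence at the end of the rod, the central coiled-coil part of the protein, is shown for the genes on which the results below turn. Each line is 30 bases of the coding strand, read 5′ to 3′ from the GENCODE release 29 transcript on GRCh38. Capitals mark the bases that differ from KRT8 in type II genes and from KRT18 in type I genes. KRT80 had no match to the searched pattern, and its sequence is not shown.
KRT8 (type II, chr12:52898684-52898713, minus strand): acctacaggaagctgctggagggcgaggag
KRT7 (type II, chr12:52245598-52245627, plus strand): acctacCgCaagctgctggagggcgaggag
KRT81 (type II, chr12:52287107-52287136, minus strand): acctacaggCGCctgctggagggcgaggag
KRT86 (type II, chr12:52306246-52306275, plus strand): acctacaggCGCctgctggagggcgaggag
KRT18 (type I, chr12:52952305-52952334, plus strand): acctaccgccgcctgctggaagatggcgag
KRT10 (type I, chr17:40819519-40819548, minus strand): acctaccgcAgcctgctAgaagGAgAGgGA
KRT19 (type I, chr17:41523782-41523811, minus strand): acctaccgcAgcctgctCgaGgGACAGgaA
KRT17 (type I, chr17:41620664-41620693, minus strand): acctaccgccgcctgctggaGgGAgAGgaT
KRT16 (type I, chr17:41610336-41610365, minus strand): acctaccgccgcctgctggaGgGCgAGgaT
KRT14 (type I, chr17:41583240-41583269, minus strand): acctaccgccgcctgctggaGgGCgAGgaC
Within this window KRT7 differed from KRT8 at 2 bases, KRT17 from KRT16 at 1, KRT17 from KRT14 at 2, and KRT81 from KRT86 at 0. Over whole transcripts, the share of 100-base stretches that also occurred in another gene was 30.3% for KRT81, nearly all of it with KRT86. It was 18.4% for KRT18, all of it with transcripts of KRT8, and 7.67% for KRT7, all of it with its antisense gene KRT7-AS. KRT8 shared 7.56%, with its pseudogenes KRT8P3 (4.47%) and KRT8P33 (2.14%) the largest parts. KRT10, KRT15, KRT19 and KRT80 shared 0%, KRT17 0.353% and KRT23 0.477%. Counts of KRT81 and KRT86 are therefore uncertain where reads could be split between them.

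ZNF706 itself gave 3211, 3504 and 3357 counts in the vector controls against 2350, 2068 and 2298 after knockdown. The groups did not overlap, and each sample fitted its label. Its level in CPM (counts scaled to library size, with TMM factors) went from 53.9 ± 1.76 (SD, n = 3) to 32.4 ± 1.39 (SD, n = 3), a log2 fold change of -0.73 (SE 0.050, adjusted p = 3.7e-05). Here and below, the log2 fold change is knockdown over control, and the adjusted p is that of the quasi-likelihood test of edgeR, adjusted by Benjamini-Hochberg over the 18390 genes tested. A gene was called changed when it was below 0.05.

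Of the 10 keratins, KRT7 fell by 28.1% while KRT80 and KRT10 rose, and the other 7 were not called. Thus 3 of 10 were called, against 22.8% of all tested genes, with 2 of 10 higher, against 10.4%, and 1 of 10 lower, against 12.4%. The CPM of the groups did not overlap for 6 of the 10, against 39.4% of all genes. The median log2 fold change was 0.04 for the 10 keratins and 0.01 for all genes, so these shares and this median give no result about the set as a whole. Scaled by library size alone, 2742 of all genes were called higher and 1518 lower, against 1906 and 2286 with TMM, and 4 of the 10 keratins were called higher. All 10 passed the filter on low counts. KRT23 passed narrowly, with 0, 6 and 13 counts in the vector controls against 17, 12 and 16 after knockdown, and its log2 fold change of 1.07 had an SE of 0.95 (adjusted p = 0.48), going to 0.49 without control replicate 1 and to 2.14 without control replicate 3. In bulk RNA, fewer cells that express a gene and less of its RNA per cell cannot be told apart.

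**Figure D1:**
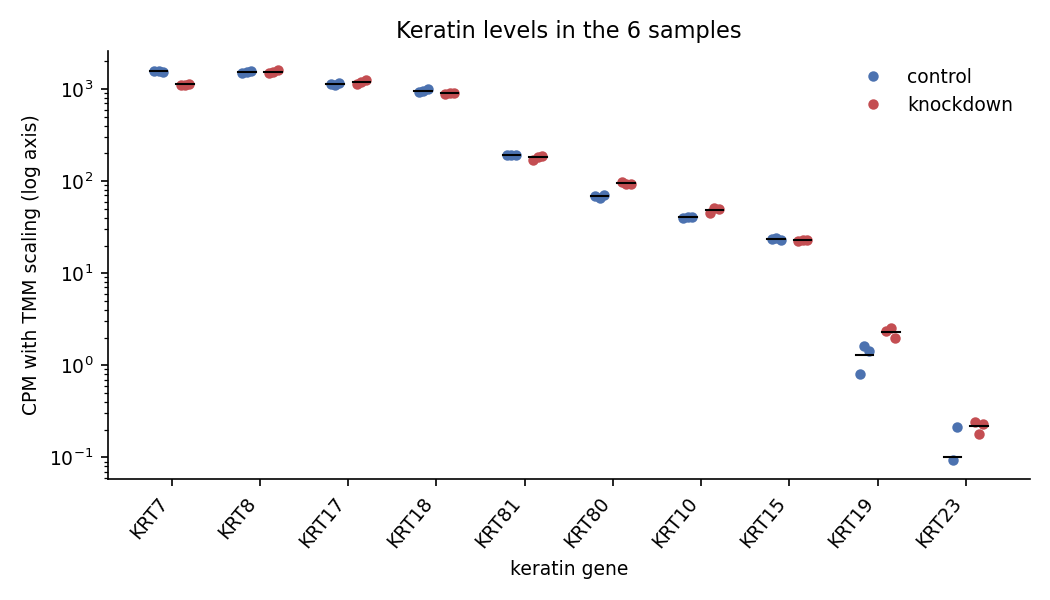
Level of each of the 10 keratins in the 6 samples, in CPM with TMM scaling on a log axis (blue, control; red, knockdown; points, samples; black bars, group means of 3). KRT7 was lower and KRT80 and KRT10 were higher in every knockdown sample than in every control sample, and control sample 1 had no KRT23 count and has no point there.

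KRT7 (ENSG00000135480, GRCh38 chr12:52232520-52252186, plus strand), the type II keratin of ducts and glands, was called lower. Its CPM values were 1571, 1586 and 1533 in the vector controls against 1109, 1116 and 1145 after knockdown. The groups were far apart, with a spread within each that was small against the difference between them. The mean fell from 1563 ± 27.4 to 1123 ± 19.0 (SD, n = 3 each), a log2 fold change of -0.48 (SE 0.027, adjusted p = 1.5e-05). The call held in all 15 alternatives tried for it, with log2 fold changes from -0.56 to -0.42.

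KRT7-AS, a gene on the opposite strand that overlaps KRT7 by 2401 bases, fell as well. It had 1371, 1530 and 1457 counts in the vector controls against 1199, 1103 and 1125 after knockdown, without overlap. Its log2 fold change was -0.50 (SE 0.073, adjusted p = 0.0013), and its counts stood at 1.49% ± 0.073 of those of KRT7 in the control samples and at 1.47% ± 0.069 in the knockdown samples (SD, n = 3). Whether the counting used strand is not given in the sources used here, so reads of the gene and of its antisense partner cannot be told apart.

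KRT80 (ENSG00000167767, chr12:52168996-52192014, minus strand) lies next to KRT7 in the type II cluster, 40505 bases away, and moved the other way. Its CPM values were 69.8, 65.9 and 71.2 in the vector controls against 96.9, 93.2 and 93.2 after knockdown. Every knockdown sample was above every control sample. The mean rose from 69.0 ± 2.75 to 94.5 ± 2.15 (SD, n = 3), by 36.9% or 0.45 on the log2 scale (SE 0.040, adjusted p = 0.00011), and the call held in all 15 alternatives. KRT80 counts were 4.42% ± 0.25 of KRT7 counts in the control samples and 8.41% ± 0.30 in the knockdown samples (SD, n = 3).

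KRT10 (ENSG00000186395, chr17:40818117-40822614, minus strand), the type I keratin of differentiating epidermis, had CPM values of 40.2, 40.7 and 40.5 in the vector controls against 45.5, 51.6 and 50.1 after knockdown. The control samples were almost alike, while knockdown sample 1 was the lowest of its group and still above them. The mean rose by 21.2%, with a log2 fold change of 0.28 (SE 0.053, adjusted p = 0.0049) that stayed between 0.24 and 0.33 and was called in all 15 alternatives. TMEM99, whose gene span overlaps that of KRT10 by 3509 bases on the opposite strand, had 766, 883 and 834 counts in the vector controls against 1062, 1087 and 1169 after knockdown. Its log2 fold change of 0.27 (SE 0.086, adjusted p = 0.049) just passed the threshold and did so in 8 of 15 alternatives. The call was lost in every leave-one-out fit and with no filter. KRT10 had 3.05 ± 0.17 counts for each TMEM99 count in the control samples and 3.06 ± 0.10 in the knockdown samples (SD, n = 3), and the KRT10 transcript shared no 100-base stretch with TMEM99 or any other gene.

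KRT10 was the called keratin whose promoter was in the RefSeq table used here (GRCh38.p14), which of the 10 members held the promoters of KRT8 and KRT10 only. The window from 250 bases before to 50 bases after the start of KRT10 is printed because it holds a TATAAA sequence, in capitals, that begins 29 bases before the start.
KRT10 promoter (chr17:40822565-40822864, minus strand): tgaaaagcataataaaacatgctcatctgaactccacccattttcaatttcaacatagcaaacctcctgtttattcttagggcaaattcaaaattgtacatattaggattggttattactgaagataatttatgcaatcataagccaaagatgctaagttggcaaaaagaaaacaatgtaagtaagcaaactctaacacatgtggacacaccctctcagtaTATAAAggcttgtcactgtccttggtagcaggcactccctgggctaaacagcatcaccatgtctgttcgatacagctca
Searched on both strands, TATAAA occurred in 11.5% of 35116 promoters of this length. TGANTCA, the sequence bound by AP-1, occurred in 7.71%. GGGCGG, the sequence bound by Sp1, occurred in 45.0%, and none of these motifs contains another. The KRT10 window held TATAAA once and neither of the others. The KRT8 window (chr12:52926420-52926719, minus strand) held none of the 3. It lies inside the KRT8 gene span (chr12:52897187-52949920), and other possible starts of KRT8 were not searched.

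KRT8 and KRT18, the simple epithelial pair, were not called. KRT8 (ENSG00000170421, chr12:52897187-52949920, minus strand) had CPM values of 1505, 1524 and 1581 in the vector controls against 1482, 1543 and 1604 after knockdown. The groups lay on top of each other, with a log2 fold change of 0.01 (SE 0.034, adjusted p = 0.93) whose sign turned in 4 of 16 alternatives. KRT18 (ENSG00000111057, chr12:52948871-52952900, plus strand) overlaps KRT8 by 1050 bases on the opposite strand, and had CPM values of 923, 951 and 1015 in the vector controls against 887, 909 and 899 after knockdown. All knockdown samples were below all control samples, but by little. The log2 fold change of -0.10 (SE 0.036, adjusted p = 0.076) missed the threshold, and it passed in DESeq2 (adjusted p = 0.022), with the GC trend removed (0.017), with the replicate number as a block (0.039) and without control replicate 1 (0.039). It was smaller with library size scaling (-0.047, adjusted p = 0.37) and with limma on log2(FPKM + 0.1) (-0.051, adjusted p = 0.31). KRT18 had 0.627 ± 0.014 counts for each KRT8 count in the control samples and 0.583 ± 0.020 in the knockdown samples (SD, n = 3), without overlap, but reads in the part where the genes overlap cannot be told apart without strand.

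KRT7 had 1.02 ± 0.042 counts for each KRT8 count in the control samples and 0.729 ± 0.018 in the knockdown samples (SD, n = 3). KRT7 made up 28.3% of all counts of the 10 keratins in the control samples and 22.0% in the knockdown samples, while KRT8 went from 27.8% to 30.2% and KRT17 from 20.7% to 23.4%. These shares sum to the whole, so a lower share of KRT7 goes with higher shares of the others.

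KRT19 (ENSG00000171345, chr17:41523617-41528308, minus strand), the type I keratin of duct and progenitor cells, was scarce in LM3 cells. It had 50, 103 and 88 counts in the vector controls against 166, 169 and 139 after knockdown. Control sample 1 was the lowest, and no knockdown sample reached down to the control range. The log2 fold change of 0.83 (SE 0.27) missed the threshold (adjusted p = 0.054). It passed with library size scaling (0.041), with genes of a mean count of at least 50 (0.048) and in DESeq2 (0.040), and in none of the 6 leave-one-out fits (0.051 to 0.158).

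KRT17 (ENSG00000128422, chr17:41619442-41624842, minus strand), the keratin of wounded epithelium, had CPM values of 1148, 1121 and 1162 in the vector controls against 1148, 1180 and 1263 after knockdown. The groups overlapped, and knockdown sample 3 was the highest. Its log2 fold change was 0.07 (SE 0.037, adjusted p = 0.25), and it was called only under scaling by library size alone (0.12, adjusted p = 0.032). With a sample left out it was 0.026 to 0.095, the lowest without knockdown replicate 3, and with the GC trend removed it was 0.014 (adjusted p = 0.82). KRT81 (ENSG00000205426, chr12:52285913-52291534, minus strand), a hair keratin, had 193, 191 and 191 CPM in the vector controls against 171, 185 and 189 after knockdown. The groups did not overlap, by a narrow margin, and the log2 fold change was -0.08 (SE 0.041, adjusted p = 0.21). With KRT86 counts added it was -0.08 (adjusted p = 0.19), and it was called only with the GC trend removed (-0.15, adjusted p = 0.024). With a sample left out it was -0.11 to -0.036, the smallest change without knockdown replicate 1. KRT15 (ENSG00000171346, chr17:41513745-41522529, minus strand), of the basal layer, had 23.5, 24.4 and 22.8 CPM in the vector controls against 22.2, 23.2 and 23.1 after knockdown. The groups overlapped, and its log2 fold change was -0.05 (SE 0.066, adjusted p = 0.68), between -0.071 and -0.021 with a sample left out.

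**Figure D2:**
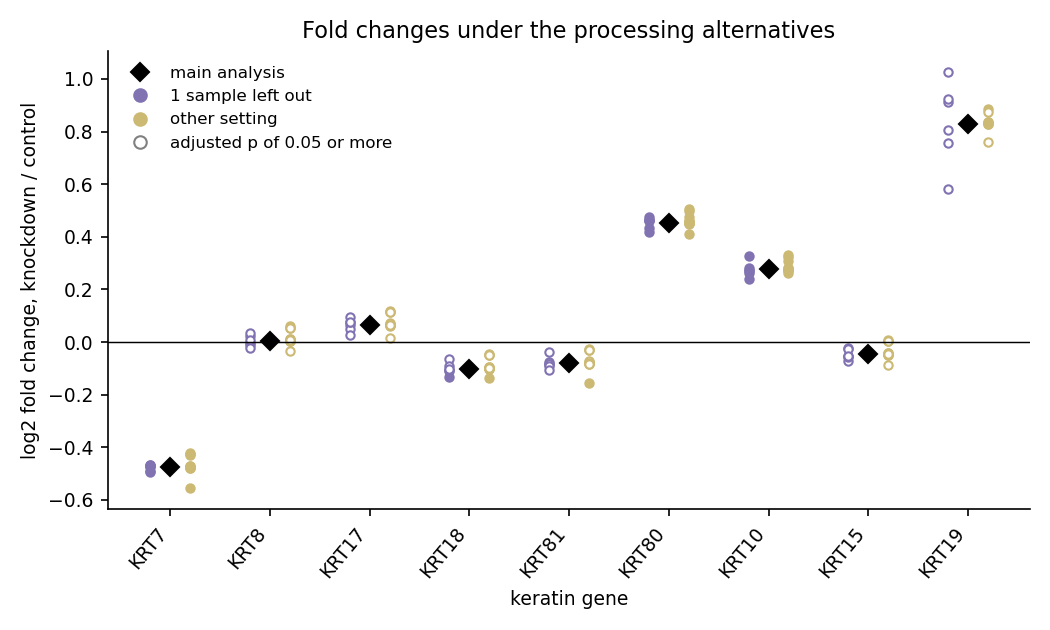
Log2 fold change (knockdown over control) of 9 keratins in the main analysis (black diamonds), with 1 sample left out (purple) and under the other settings (yellow), where open circles have an adjusted p of 0.05 or more. KRT7, KRT80 and KRT10 were called under every setting, while KRT18, KRT19, KRT17 and KRT81 were called under some and KRT8 and KRT15 under none. KRT23 is left out because of its wide range.

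The keratins were ranked by level only per length, and the ratios of counts above compare the groups, not the genes. In the deposited FPKM (scaled to gene length and library size) of the control samples, KRT7 was highest at 337 ± 8.30, beside KRT17 at 329 ± 5.70, with overlapping ranges (SD, n = 3). KRT18 at 271 ± 10.8, KRT8 at 193 ± 3.32, KRT81 at 85.8 ± 1.33, KRT10 at 16.1 ± 0.13, KRT80 at 13.6 ± 0.53, KRT15 at 3.40 ± 0.13, KRT19 at 0.463 ± 0.16 and KRT23 at 0.027 ± 0.031 followed, each without overlap with the next. In the knockdown samples KRT17 was highest at 356 ± 17 FPKM, ahead of KRT18 at 261 ± 3.48 and KRT7 at 251 ± 3.75 (SD, n = 3), again with separate ranges. KRT10 (20.2 ± 1.30) and KRT80 (19.3 ± 0.45) were the neighbours that overlapped there.

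This order depended on the length used. The deposited FPKM of KRT8 implied a length of 7.84 kb, against 1.69 kb for its coding transcript in GENCODE release 29, and that of KRT7 implied 4.56 kb against 1.75 kb. In CPM per kb of that transcript, KRT8 was first in the control samples at 911 ± 23.4, overlapping KRT7 at 891 ± 15.6, and KRT17 (754 ± 13.8) and KRT18 (678 ± 33.0) followed (SD, n = 3). In the knockdown samples KRT8 stood at 914 ± 36.1, KRT17 at 789 ± 39.1 and KRT7 at 641 ± 10.8, which overlapped KRT18 at 633 ± 7.79 (SD, n = 3). On both scales KRT7 was lower than KRT17 in the knockdown samples, whereas it was above it or overlapped it in the control samples.

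The balance of type I and type II keratins moved with KRT7. Summed FPKM of the type I members (KRT10, KRT15, KRT17, KRT18, KRT19 and KRT23) was 620 ± 12.5 in the control samples and 642 ± 18.9 in the knockdown samples, with overlap. That of the type II members (KRT7, KRT8, KRT80 and KRT81) was 629 ± 5.74 and 554 ± 14.9, without overlap (SD, n = 3). The ratio of type I to type II was 0.971, 0.967 and 1.018 in the vector controls against 1.157, 1.158 and 1.163 after knockdown. Without KRT7 the ratio was 2.12 ± 0.023 in the control samples and 2.12 ± 0.020 in the knockdown samples (SD, n = 3), and the groups overlapped. In CPM per kb the ratio with KRT7 was 0.762 ± 0.019 and 0.870 ± 0.00035 (SD, n = 3), so that its level depended on the length used and its direction did not. These sums were not tested.

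**Figure D3:**
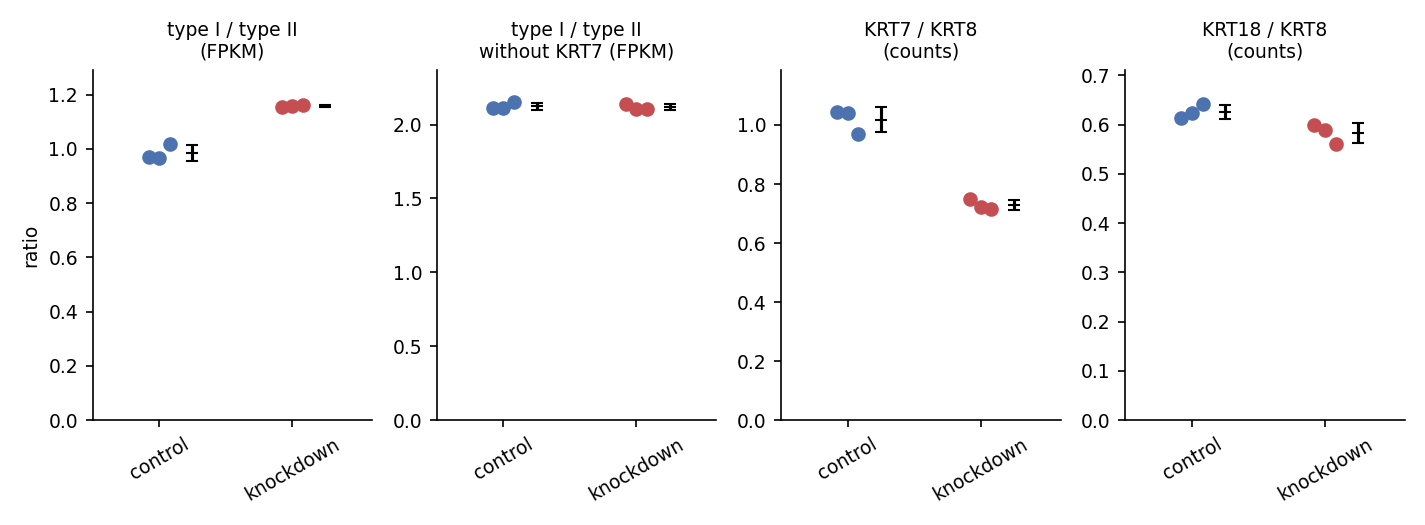
Ratios of keratin levels in each sample (points; bars, mean ± SD of 3), from left to right type I to type II members in FPKM, the same without KRT7, KRT7 to KRT8 counts and KRT18 to KRT8 counts. The type I to type II ratio was higher in all knockdown samples, and without KRT7 the groups overlapped near 2.12.

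All keratins together made up 0.545% ± 0.0036 of the counts in the control samples and 0.524% ± 0.013 in the knockdown samples (SD, n = 3), without overlap. This share includes KRT7, whose mean went from 1563 to 1123 CPM, while the summed CPM of the 10 members went from 5533 to 5112. The share without KRT7 was not computed, so the difference cannot be read as a fall of the other keratins. Unscaled keratin counts were 346186 ± 5498 and 355454 ± 13975 (SD, n = 3), with overlap. The table held 36 keratin genes, of which 24 had at least 10 counts in a sample and 22 were tested. The 10 members carried 99.5% of keratin counts in the control samples and 99.3% in the knockdown samples.

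Among the 12 other keratins tested, KRT14 and KRT16, type I keratins of the basal layer and of wounded or hyperproliferative epidermis, rose, and none fell. These 2 of 12 called were a smaller share than the 22.8% of all tested genes. KRT14 had 142, 119 and 103 counts in the vector controls against 301, 350 and 316 after knockdown, with no overlap. Its level rose 2.40-fold, from 1.95 ± 0.32 to 4.68 ± 0.48 CPM (SD, n = 3), a log2 fold change of 1.26 (SE 0.17, adjusted p = 0.00091). KRT16 had 612, 586 and 510 counts in the vector controls against 933, 1065 and 1106 after knockdown, also with no overlap, and a log2 fold change of 0.71 (SE 0.11, adjusted p = 0.0015). Both calls held in all 15 alternatives.

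KRT14 and KRT16 share 3.77% and 3.82% of their 100-base stretches with each other, and their reads may be split between them. KRT16 lies 3542 bases from KRT17, a member that was not called. For each 100 counts of KRT17 there were 0.799 ± 0.076 counts of KRT16 in the control samples and 1.25 ± 0.093 in the knockdown samples (SD, n = 3), without overlap. The difference between the changes of KRT16 and KRT17 was not tested.

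KRT6A, the type II partner of KRT16, had 285, 243 and 276 counts in the vector controls against 453, 317 and 470 after knockdown. The groups did not overlap, but its log2 fold change of 0.47 (SE 0.16, adjusted p = 0.063) missed the threshold and passed it in 5 of 15 alternatives, without knockdown replicate 2 among them. KRT13 (-0.56, adjusted p = 0.15) and KRT86, which overlaps KRT81 and the end of KRT7 (-0.23, adjusted p = 0.30), were not called. KRT5, KRT9, KRT12, KRT20, KRT40, KRT83 and KRT85 had at most 77 counts in any sample and were not called, and KRT6B and KRT6C, with at most 17, were not tested. With KRT7, KRT80 and KRT10 there were thus 5 calls among 22 keratins, a share close to the 22.8% of all tested genes, which is no result about keratins as a family.

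**Figure D4:**
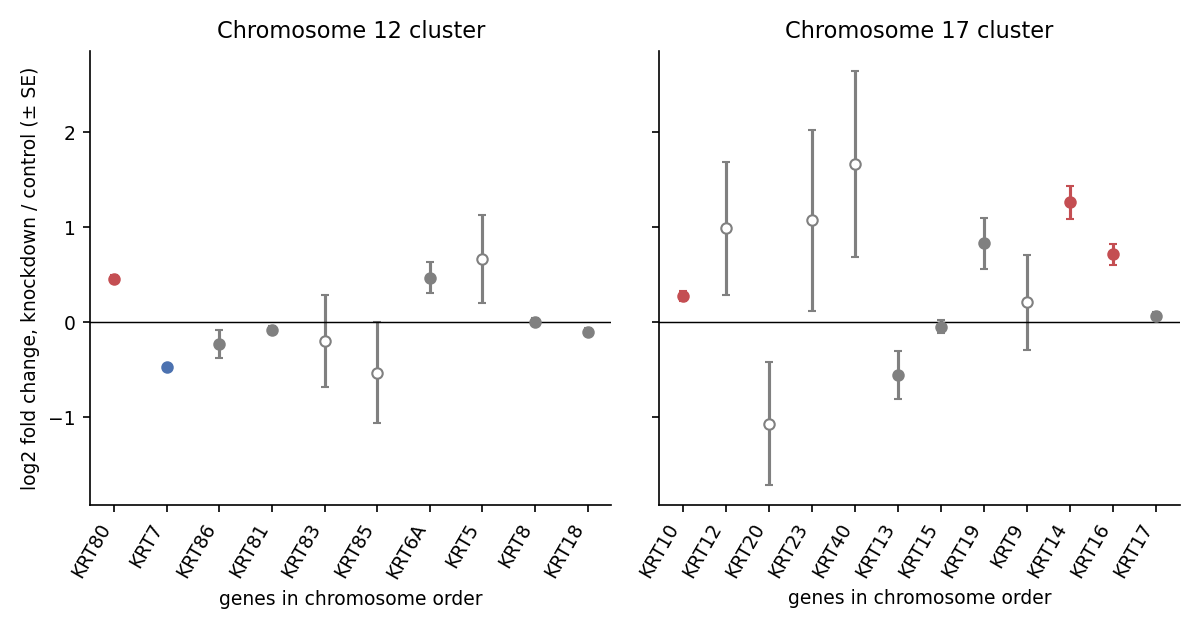
Log2 fold change (knockdown over control, ± SE) of the tested keratins in chromosome order in the clusters on chromosomes 12 and 17, where KRT18 is the type I gene at the end of the type II cluster. Red, called higher; blue, called lower; grey, not called; open circles, genes with no more than 100 counts in any sample. KRT80 and KRT7 are neighbours with opposite signs, and KRT17 lies near 0 beside KRT14 and KRT16.

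Other genes that overlap a member's position were KRT87P with KRT7 (log2 fold change -0.11, adjusted p = 0.48), LINC00592 with KRT80 (at most 22 counts), AC004231 with KRT23 (34, 41 and 54 counts in the vector controls against 73, 84 and 54 after knockdown, adjusted p = 0.26) and MIR6510 in KRT15 (at most 2 counts). Of pseudogenes named after KRT8, KRT17 and KRT18 the table held 30, 7 and 33. Their summed counts came to 0.987% of the counts of KRT8, 0.152% of those of KRT17 and 0.155% of those of KRT18, and adding them left the log2 fold changes at 0.01, 0.07 and -0.10. Of the 3 with the most counts, KRT8P12 rose. It had 288, 304 and 307 counts in the vector controls against 490, 571 and 559 after knockdown, without overlap, and a log2 fold change of 0.70 (SE 0.12, adjusted p = 0.0027) that was called in all 15 alternatives. KRT8P12 lies inside KPNA4 on the opposite strand, and KPNA4, an importin gene, fell by 0.15 on the log2 scale (SE 0.032, adjusted p = 0.0094). KRT8P3 (0.05, adjusted p = 0.86) and KRT8P33 (-0.12, adjusted p = 0.75) were not called.

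Keratin filaments end at desmosomes, the cell-to-cell junctions, and at hemidesmosomes, which hold cells to the matrix. Of 14 desmosome and hemidesmosome genes tested, 3 rose and none fell (median log2 fold change 0.09, against 0.01 for all genes), a share close to the 22.8% of all tested genes called. With library size scaling 5 were called higher, as they were without knockdown replicate 3, and with the GC trend removed 1 was called lower. DSP, desmoplakin, which ties keratins to the desmosome, went from 729 ± 14.0 to 849 ± 39.7 CPM (SD, n = 3), a log2 fold change of 0.22 (SE 0.037, adjusted p = 0.0027). JUP, plakoglobin, changed by 0.27 (SE 0.037, adjusted p = 0.00089), and CD151, a tetraspanin of hemidesmosomes, by 0.17 (adjusted p = 0.0061), a call that was lost with the GC trend removed (adjusted p = 0.075). PLEC, plectin, was not called (0.11, adjusted p = 0.12).

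Of 13 cytolinkers and keratin-binding proteins, 2 rose and 1 fell (median 0.04), again close to the 22.8% of all tested genes. With library size scaling and with both limma fits on FPKM 4 were called higher. Only 1 was called higher with no filter, with the GC trend removed and in each leave-one-out fit except that without knockdown replicate 3. In DESeq2, with the replicate block and with the GC trend removed 2 were called lower. PPL, periplakin, which links intermediate filaments to the cell border, had 471, 521 and 357 counts in the vector controls against 1132, 1119 and 1051 after knockdown. The groups were well apart, with a log2 fold change of 1.15 (SE 0.13, adjusted p = 0.00034). EVPL, envoplakin, the partner of periplakin, changed by 0.29 (SE 0.083, adjusted p = 0.034), and that call held in 8 of 15 alternatives and in 1 of the 6 leave-one-out fits, without knockdown replicate 3. TGM2, a transglutaminase that cross-links proteins including keratins, fell by 0.39 on the log2 scale (SE 0.035, adjusted p = 0.00012), and 2 genes of the list were called lower without control replicate 3 and without knockdown replicate 1.

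Of 16 transcription factors and other regulators of epithelial genes, 3 rose and 1 fell (median -0.03), near the 22.8% of all tested genes. ELF3, an epithelial ETS factor, changed by 0.57 (SE 0.093, adjusted p = 0.0022), AP1M2, an adaptor of epithelial membrane sorting, by 0.53 (SE 0.058, adjusted p = 0.00031), and KLF4 by 0.21 (adjusted p = 0.023, called in 10 of 15 alternatives). KLF5, a factor of basal and proliferating epithelium, fell by 0.32 on the log2 scale (SE 0.034, adjusted p = 0.00024), and 2 genes of this list were called lower without control replicate 1 and without knockdown replicate 1. Of 11 other intermediate filament genes, 2 rose and 1 fell (median 0.04), also near the 22.8% of all tested genes. SYNM, synemin, changed by 0.23 (adjusted p = 0.0058), SYNC, syncoilin, by 0.45 (adjusted p = 0.013, lost without control replicate 3 and without knockdown replicate 2), and LMNB2, a nuclear lamin, by -0.21 (adjusted p = 0.0014). VIM, vimentin, the mesenchymal filament, stood at 1006 ± 16.9 CPM in the control samples and 1033 ± 3.07 in the knockdown samples (SD, n = 3), a log2 fold change of 0.04 (adjusted p = 0.36). VIM was called higher in 3 of 15 alternatives, with library size scaling and both limma fits, and ranged from 0.026 to 0.091 over the alternatives.

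**Figure D5:**
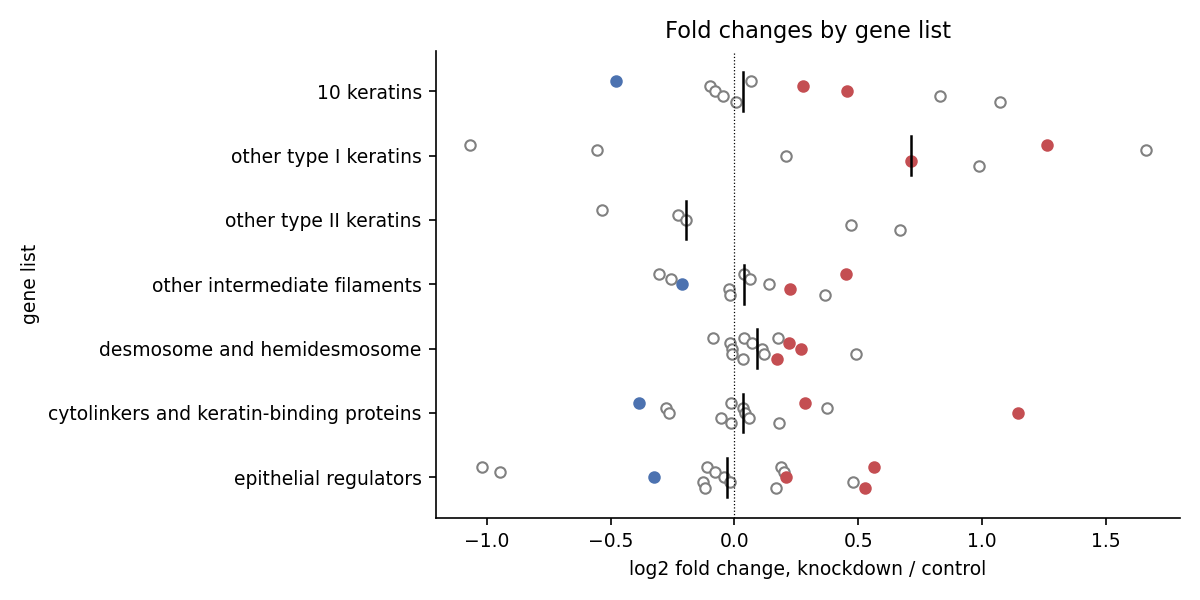
Log2 fold change (knockdown over control) of the tested genes of 7 lists (points; black bars, medians; red, called higher; blue, called lower; open circles, not called). The 3 called genes among the 10 keratins lie on both sides of 0, as did the called genes of the cytolinker, regulator and other filament lists.

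The tissue label is liver and the cell type label HCC. Hepatocyte markers were low in all samples. ALB, albumin, which had the highest CPM of the 11 tested (not scaled to length), had 3.05, 14.1 and 14.4 CPM in the vector controls against 8.37, 9.47 and 1.97 after knockdown. The summed CPM of the list was 16.9, 38.2 and 43.9 in the vector controls against 21.4, 21.2 and 10.1 after knockdown, which overlapped. Of the 11, 0 were called higher and 1 lower, against 10.4% and 12.4% of all tested genes, and all 11 had a negative log2 fold change (median -0.85). The number called was not stable, with 4 called lower without knockdown replicate 3, 3 with the replicate block, and 2 in DESeq2, without control replicate 2 and, of the 3 genes tested there, with limma on log2(FPKM + 1). Nor was the common sign, since TTR at -0.06 (adjusted p = 0.98) turned sign in 5 of 12 alternatives, between -1.90 and 0.53. The called gene was SERPINA1, alpha-1 antitrypsin, at -1.47 (SE 0.26, adjusted p = 0.0034).

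Of 9 cholangiocyte and progenitor markers tested, 2 rose and none fell (median 0.39), a share close to the 22.8% of all tested genes. With library size scaling and with the replicate block 4 were called higher, and without knockdown replicate 1, with the GC trend removed and among genes averaging 50 counts or more 1 was called lower. CD24 had 3125, 3180 and 2900 counts in the vector controls against 5696, 5324 and 5459 after knockdown, a log2 fold change of 0.69 (SE 0.040, adjusted p = 1.8e-05). CLDN4, a tight junction claudin, changed by 1.08 (SE 0.13, adjusted p = 0.00053). SOX9, a duct transcription factor, had a log2 fold change of -0.95 that missed the threshold (adjusted p = 0.060). It passed in 1 of 13 alternatives, among genes averaging 50 counts or more. EPCAM, an epithelial adhesion molecule, had few counts (8, 34 and 29 in the vector controls against 51, 74 and 6 after knockdown). MUC1, with the highest CPM of the list, was not called (-0.07, adjusted p = 0.22). The summed CPM of this list was 202, 201 and 197 in the vector controls against 240, 245 and 229 after knockdown. Most of that difference was CD24, which went from 49.3 ± 1.76 to 79.5 ± 1.61 CPM (SD, n = 3). Of the 9 markers 6 had positive log2 fold changes, among them CDH1 (0.59, adjusted p = 0.072), AQP1 (0.39, adjusted p = 0.071) and ANXA4 (0.21, adjusted p = 0.095), which were not called. The part of CD24 and CLDN4 in the keratin results was not tested.

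Markers of other cell types were compared in the same way, and their part in the keratin results was not tested. Of 6 fibroblast markers tested, COL1A1 (0.20, adjusted p = 0.0023), PDGFRB (0.68, adjusted p = 0.0030) and THY1 (0.48, adjusted p = 0.0090) rose, a share of 3 in 6 against 22.8% of all tested genes. The other 3, COL3A1 (-2.04, adjusted p = 0.34), LUM (-1.26, adjusted p = 0.12) and DCN (-0.04, adjusted p = 0.97), were not called. Their values depended on the samples and settings used, with COL3A1 at 0.36 without control replicate 1, LUM between -1.59 and -0.63 and DCN between -0.36 and 0.48 over the alternatives. The summed CPM of the list was 106, 93.4 and 98.6 in the vector controls against 116, 116 and 119 after knockdown. Of 2 endothelial markers tested, CDH5, with the higher CPM, fell by 0.70 on the log2 scale (adjusted p = 0.0014), against 12.4% of all tested genes called lower, while PECAM1 was not called (0.15, adjusted p = 0.54), with sums of 13.6, 14.9 and 16.5 CPM and of 11.3, 12.6 and 13.2 CPM. Of 4 leukocyte markers tested, 1 was called, higher, a share of 25.0% against 22.8% of all tested genes called and 10.4% called higher. It was CD68, a lysosomal protein, which rose by 0.64 (adjusted p = 0.00011). The list summed to 27.4, 27.6 and 29.1 CPM in the vector controls against 41.3, 44.7 and 41.3 after knockdown. CD68 alone made up 26.5, 26.0 and 27.2 CPM of these sums against 40.3, 43.8 and 40.1. PTPRC, which defines leukocytes, had 8, 8 and 0 counts in the vector controls against 0 in each knockdown sample.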

How the data were processed

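LM3 RNA was sequenced on the Illumina NovaSeq system. The submitters' processing notes name cutadapt 1.9, FastQC and the build GRCh38, and the reads were mapped with HISAT2. The authors deposited raw counts per gene, without normalization, and FPKM values, scaled by them to gene length and library size. Counting program, use of strand and annotation release are not given in the sources used here.

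After the filterByExpr filter and TMM scaling, genes were tested by edgeR 4.0.16 (glmQLFit, glmQLFTest) in R 4.3.3, with group as the only term and Benjamini-Hochberg adjustment over all 18390 genes tested, of 33007 (1688 had no count). The standard error (SE) was derived as the size of the log2 fold change over the root of F. Chi-square per gene between samples was 12.8 to 22.2 within groups and 45.9 to 53.9 between groups, so no library was a repeat of another. The smallest two-sided p of an exact permutation test in this design is 0.1. The script was tested on simulated counts.

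The members and the gene lists were chosen with earlier results of these data known. Named genes are ZNF706, the 10 keratins, other keratins with at least 10 counts in a sample, the 3 member pseudogenes with the most counts, genes that overlap a member, and in each list up to 5 called genes with the smallest p and the marker with the highest CPM. VIM, PLEC, SOX9, EPCAM, CDH1, AQP1, ANXA4, TTR, PECAM1, COL3A1, LUM, DCN, PTPRC and KPNA4 were named after their values were seen. Alternatives were DESeq2 1.42.0 (Wald test), its size factors in edgeR, library size scaling, no filter, genes averaging 50 counts or more, replicate number as a block, a GC offset (loess, 98.58% of tested genes with a value), limma 3.58.1 on log2(FPKM + 0.1) and log2(FPKM + 1) for genes averaging 1 FPKM or more, each sample left out, and keratins summed with copies. CPM per kb was added after seeing the data. Sequences were taken from GENCODE release 29 and RefSeq.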

Additional observations from a re-analysis of the deposited data

How the results depend on the processing

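Scaling by library size alone gave 2742 genes higher and 1518 lower, against 1906 and 2286 with TMM (64.4% and 45.5% of calls higher; 59.7% with limma on FPKM), and moved the median log2 fold change of all genes from 0.01 to 0.06. With it 4 keratins were called higher, KRT17 (0.12) and KRT19 (0.89) being added, and KRT15 turned to 0.0078. No filter on low counts gave 1253 genes higher. In DESeq2, 2 keratins were called lower, with KRT18 at -0.095, and KRT19 (0.84) was added to those called higher. KRT19 was also called among genes averaging 50 counts or more (0.84). With the GC trend removed 3 keratins were called lower, with KRT18 at -0.14 and KRT81 at -0.15, and KRT8 turned to -0.034. With limma on log2(FPKM + 0.1) and log2(FPKM + 1), KRT15 turned to 0.0045 and 0.0035. With a sample left out, 2648 to 3424 genes were called (1148 to 1485 higher, 1500 to 1939 lower), with the lowest numbers without knockdown replicate 2, and 2 keratins were called higher and 1 to 2 lower, the 2 without control replicate 1. The log2 fold change of KRT8 was then -0.022 to 0.035, with -0.013 without control replicate 1, -0.0021 without control replicate 2 and -0.022 without knockdown replicate 3, and that of KRT18 was -0.13 to -0.064. The causes were not tested. KRT23 had too few counts for limma and for a mean count of 50. KRT19 averaged below 1 FPKM and was not in the limma fits, so it was tried in 13 alternatives.

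Replicate numbers paired the samples weakly if at all. The deviations of same-numbered samples from their group means correlated at 0.075, -0.0086 and 0.081 across genes. Those of differently numbered samples correlated at -0.097 to 0.025. With the replicate block, 4361 genes were called (1967 higher, 2394 lower) and 2 keratins were called lower, KRT18 (-0.10, adjusted p = 0.039) being added. KRT19 and KRT23 rest on few counts, so differences in them are poorly resolved at this depth.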
